A study of Homo sapiens with 4 samples.

Results

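The sestrins, DDIT4 and the core regulators of mTORC1 were examined in RNA sequencing of SKBR3, an established HER2-positive breast cancer cell line. The 10 genes, SESN1, SESN2, SESN3, DDIT4, TSC1, TSC2, RHEB, RPTOR, DEPTOR and EIF4EBP1, were chosen by name from the 56271 gene rows of the count table. Of these 10, 8 passed the expression filter (RPKM, reads scaled to exonic length and library size, above 1 in at least 2 of the 4 libraries) and were tested, and SESN1 and SESN3 lay below it. The 2 eGFP control libraries came from cells carrying the FUW lentiviral vector with eGFP behind the human ubiquitin C promoter. The 2 VIRMA-overexpressing libraries (VIRMA libraries below) came from cells given the same vector with HA-tagged full-length VIRMA and eGFP joined through p2A. VIRMA is a scaffold of the methyltransferase complex that places N6-methyladenosine (m6A) on mRNA, and the comparison asks which transcripts change when it is raised. In both groups eGFP-positive cells were sorted and expanded, so each group is a pooled transduced population and a difference between the populations and the effect of raised VIRMA cannot be told apart. The culture notes shared by all 4 libraries describe a low-oxygen chamber, whereas the study's methods give standard incubator conditions for the line, so how much oxygen the sequenced cells had is uncertain and the groups share the same note.

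mTORC1 is the protein kinase complex, built on MTOR and its substrate-recruiting subunit RPTOR, that drives protein synthesis and growth when amino acids and growth factors are plentiful. The small GTPase RHEB switches it on at the lysosome, and the TSC1-TSC2 complex switches RHEB off. Stress acts on this circuit through transcription of inhibitors: SESN2 encodes a leucine-binding protein that restrains mTORC1 through GATOR2 when leucine is scarce, and DDIT4 (REDD1) encodes a protein that acts through TSC2. Among the known regulators of these inhibitor genes are ATF4, the transcription factor of the integrated stress response, FOXO factors and hypoxia-inducible factors.

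The libraries held 81446932 to 86375474 counts. VIRMA, listed under its older symbol KIAA1429, had 710 and 682 counts in the eGFP libraries and 3437 and 3460 in the VIRMA libraries, a log2 fold change of 2.29 with an SE of 0.0685, in the direction of the group names. The median absolute log2 difference was 0.0627 between control replicates and 0.0609 between the VIRMA libraries, while the group means differed by a median of 0.307. Of 7 breast epithelial markers, 6 had at least 12292 counts in every library, and CDH1, the E-cadherin gene, had 5 to 33. The summed CPM (counts scaled to library size with TMM) of 6 erythroid markers was 28.2 and 20.4 in the eGFP libraries and 0.484 and 0.326 in the VIRMA libraries, mostly from HBB, with 2137 and 1543 counts in the eGFP libraries and 0 in each VIRMA library. None of the erythroid markers was at 0 in all 4 libraries, and the part of this difference in the results below was not tested. Markers of leukocytes (5 genes), fibroblasts (4 genes) and endothelial cells (3 genes) summed to at most 13.9 CPM in any library.

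SESN2 and DDIT4 were the 2 genes of the 10 that rose more than 2-fold in VIRMA-overexpressing cells. SESN2 was 4.58-fold and DDIT4 2.38-fold higher than in the controls, and the mRNAs of EIF4EBP1, TSC1, DEPTOR and TSC2 rose by smaller amounts, in that order. RPTOR and RHEB fell slightly. SESN1 and SESN3, below the filter and not in this test, did not pass in a separate fit with no filter. At an adjusted p below 0.05 (edgeR, adjusted over 12205 genes), 6 of the 8 tested genes were higher and 2 lower, where 35.1% and 35.9% of all tested genes were called in these directions. With upper-quartile scaling or library totals alone the number lower was 1 in place of 2, since RHEB no longer passed. Past both thresholds (adjusted p below 0.05 and log2 fold change above 1 or below -1) were 2 genes higher and 0 lower, against 4.52% and 2.93% of all tested genes. The libraries of the groups did not overlap for any of the 8, with VIRMA-overexpressing libraries above in 6 and below in 2, whereas 42.7% and 41.6% of tested genes separated in these directions. The median log2 fold change of the 8 genes was 0.59, against 0.01 over all tested genes.

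**Figure D1:**
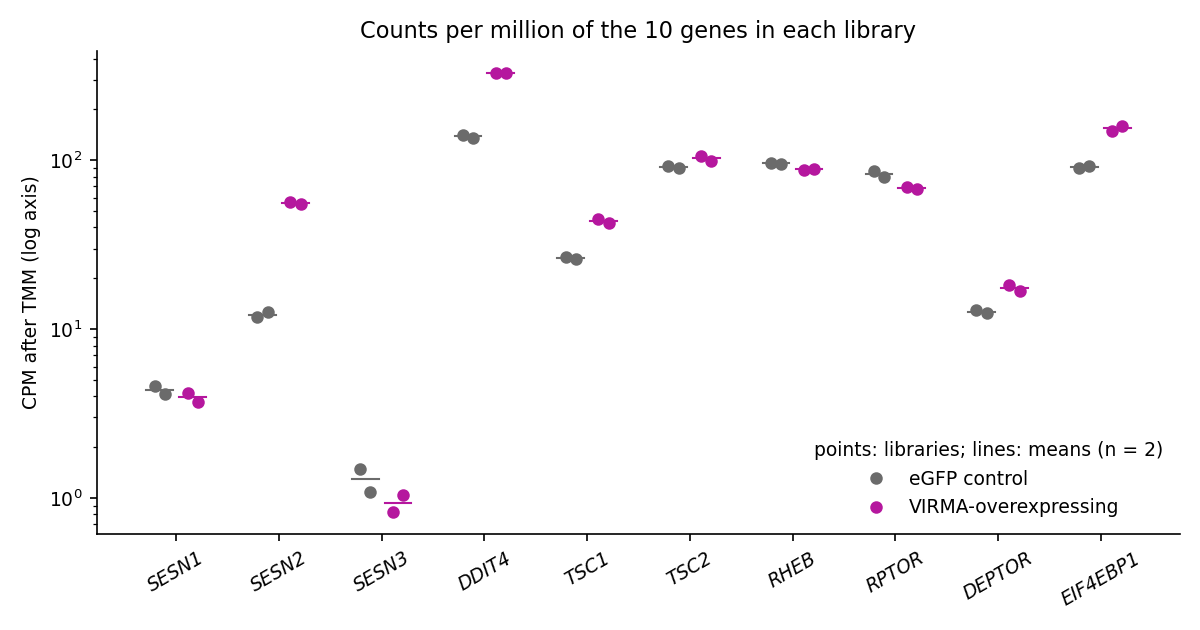
CPM after TMM on a log axis for each of the 10 genes, with 1 point per library (grey, eGFP control, magenta, VIRMA-overexpressing) and a line at each group mean (n = 2). SESN2 and DDIT4 show the widest gaps between groups, from 12.2 to 55.8 CPM and from 138.4 to 329.2 CPM, while the points of SESN1 overlap.

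The sestrins are stress-inducible antioxidant and nutrient-signalling proteins encoded by 3 paralogous genes, of which SESN1 and SESN2 are the best known leucine-responsive members. SESN2 (GRCh38 chr1:28259527-28282491, plus strand) was covered by 973 and 1041 counts in the eGFP libraries and 4807 and 4542 in the VIRMA libraries, or 11.8 and 12.6 CPM against 56.7 and 54.9 CPM. Both VIRMA-overexpressing libraries lay far above both controls, and the replicates of each group were close together. The means were 12.2 ± 0.528 CPM (SD, n = 2) and 55.8 ± 1.29 CPM (SD, n = 2). This gave a log2 fold change of 2.19 (SE 0.0595, 95% CI 2.07 to 2.32, edgeR adjusted p = 5.10e-27), which placed SESN2 at rank 74 of the 12205 tested genes by absolute log2 fold change.

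SESN1 (chr6:108986437-109094819, minus strand), known as a FOXO target, had 377 and 341 counts in the eGFP libraries and 355 and 308 in the VIRMA libraries. The groups overlapped. SESN3 (chr11:95165513-95232541, minus strand), known as a FOXO target, had 123 and 90 counts in the eGFP libraries and 70 and 86 in the VIRMA libraries, which lay lower without overlap but at few counts. Fitted with no filter, over 33976 genes of which 14.4% were called higher and 15.3% lower, SESN1 had a log2 fold change of -0.17 (SE 0.155, 95% CI -0.47 to 0.13, edgeR adjusted p = 0.509). SESN3 had -0.50 (SE 0.291, 95% CI -1.07 to 0.07, edgeR adjusted p = 0.227). Single libraries moved both. SESN1 was -0.10 without eGFP control replicate 1 and -0.24 without eGFP control replicate 2. It was -0.25 without VIRMA-overexpressing replicate 1 and -0.09 without VIRMA-overexpressing replicate 2. SESN3 was -0.26 without eGFP control replicate 1 and -0.71 without eGFP control replicate 2. The interval of SESN1 stayed within a 2-fold change in either direction. That of SESN3 reached a 2-fold decrease, so a fall of SESN3 of this size was not excluded.

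Set per exonic length, SESN2 was already the main sestrin mRNA in control cells and became nearly the whole of it in VIRMA-overexpressing cells. The summed RPKM of the 3 genes was 4.46 and 4.54 in the eGFP libraries and 17.3 and 16.7 in the VIRMA libraries. SESN2 made up 76.8% and 80.1% of this sum in the eGFP libraries and 94.8% and 95.1% in the VIRMA libraries, a mean of 78.4 ± 2.32% (SD, n = 2) against 94.95 ± 0.169% (SD, n = 2). The share of SESN1 was 20.1% and 17.7% in the eGFP libraries and 4.72% and 4.35% in the VIRMA libraries. SESN3 held 3.17% and 2.26% in the eGFP libraries and 0.451% and 0.588% in the VIRMA libraries. The shares of SESN1 and SESN3 were smaller in VIRMA-overexpressing cells, where the sum they are divided by was higher. Their own mean RPKM was also lower, 0.849 against 0.772 for SESN1 and 0.122 against 0.0882 for SESN3. Neither change passed in the fit with no filter, which did not exclude a 2-fold fall of SESN3.

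DDIT4 (chr10:72273920-72276036, plus strand) was covered by 11672 and 11198 counts in the eGFP libraries and 27878 and 27283 in the VIRMA libraries, or 141.7 and 135.1 CPM against 328.8 and 329.6 CPM. The groups were widely separated, and the VIRMA-overexpressing replicates were nearly equal. The means were 138.4 ± 4.67 CPM (SD, n = 2) and 329.2 ± 0.577 CPM (SD, n = 2). DDIT4 thus had a log2 fold change of 1.25 (SE 0.0324, 95% CI 1.18 to 1.32, edgeR adjusted p = 1.23e-27), at rank 503 of 12205 by absolute size. The intervals of SESN2 and DDIT4 did not overlap, and the lower bound of each lay above a 2-fold increase. An antisense gene, RP11-442H21.2, covers 41.2% of the exonic length of DDIT4 and was listed at 0 counts in all 4 libraries. All 847 bases of this gene are shared with DDIT4, and the strand setting of the counting is not given. The 0 counts therefore do not show how reads in the shared stretch were counted, and the level of DDIT4 is uncertain to that extent.

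**Figure D2:**
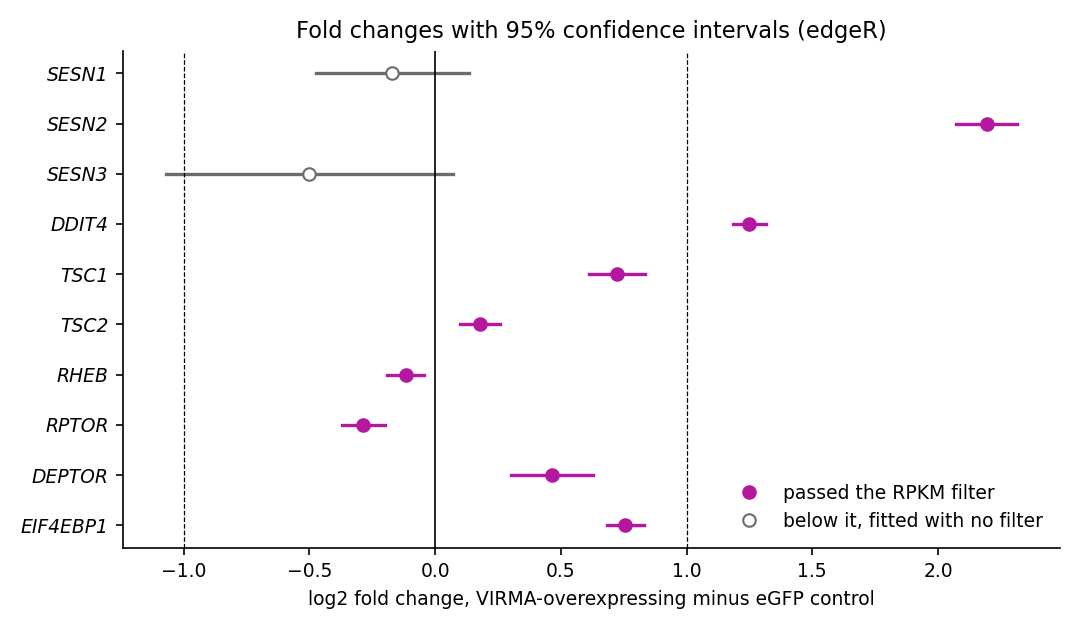
Log2 fold change of each gene, VIRMA-overexpressing minus eGFP control, with its 95% confidence interval from edgeR. Filled points passed the RPKM filter, open points (SESN1, SESN3) were fitted with no filter, and dashed lines mark a log2 fold change of 1 and -1. SESN2 (2.19) and DDIT4 (1.25) lie wholly to the right of the upper dashed line, and the intervals of SESN1 and SESN3 cross 0.

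The promoter windows of the 2 genes past both thresholds are shown because they are the members that rose together. Windows from RefSeq (GRCh38.p14) span 250 bases before to 50 bases after the annotated start and were matched for 8 of the 10 genes, with none for DEPTOR and EIF4EBP1. In SESN2 (chr1:28259268-28259567, plus strand) capitals mark the GC box GGGCGG or its complement, and in DDIT4 (chr10:72273674-72273973, plus strand) they mark the hypoxia response element core, ACGTG or GCGTG.
SESN2: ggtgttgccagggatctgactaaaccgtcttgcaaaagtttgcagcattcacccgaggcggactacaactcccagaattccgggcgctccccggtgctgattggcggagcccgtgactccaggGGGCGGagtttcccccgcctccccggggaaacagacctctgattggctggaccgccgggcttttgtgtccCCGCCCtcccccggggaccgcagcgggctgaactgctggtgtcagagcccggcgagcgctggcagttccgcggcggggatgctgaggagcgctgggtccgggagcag
DDIT4: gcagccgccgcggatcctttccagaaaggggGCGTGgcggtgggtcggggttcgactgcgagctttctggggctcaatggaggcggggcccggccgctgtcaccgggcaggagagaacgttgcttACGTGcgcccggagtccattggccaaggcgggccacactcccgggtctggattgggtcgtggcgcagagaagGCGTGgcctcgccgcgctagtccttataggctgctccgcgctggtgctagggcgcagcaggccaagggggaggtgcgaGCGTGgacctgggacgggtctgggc
The SESN2 window held 2 GC boxes, which begin at -127 and -57 from the start, and none of the other motifs searched. DDIT4 held 4 hypoxia response element cores, beginning at -219, -125, -53 and 26, and no other motif searched. These are common letters, since 45.0% of the 35116 windows in the table held a GC box and 48.4% a hypoxia response element core on either strand. The core of the ATF4 composite element, TGATGNAA, was present in 3.6% of all windows and in neither of these. The FOXO element GTAAACA (3.4% of windows) and the E-box CACGTG (7.3% of windows) were also found in neither.

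Among the 8 genes with a window, the 1 with an ATF4 core was TSC2, in its window 1 (chr16:2047735-2048034). Its window 2, at another annotated start (chr16:2047952-2048251), held 0. The stretch with the core is shown, from -130 to -91 (chr16:2047855-2047894, plus strand). Capitals mark an E-box that overlaps the ATF4 core TGATGCAA.
TSC2: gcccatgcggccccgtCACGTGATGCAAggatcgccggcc
The E-box begins at -114 and the ATF4 core at -110, and the E-box also contains the hypoxia response element core on both strands. A match of letters in a window is a description and not a site in use. Sequence outside the windows was not searched, so a motif absent from a window may lie elsewhere in the gene.

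TSC1 (hamartin) stabilises TSC2 (tuberin), which carries the GTPase-activating function toward RHEB. TSC1 (chr9:132891348-132944633, minus strand) had 26.7 and 26.0 CPM in the eGFP libraries and 44.7 and 42.5 CPM in the VIRMA libraries. TSC2 (chr16:2047465-2088720, plus strand) had 92.0 and 89.9 CPM in the eGFP libraries and 106.3 and 99.6 CPM in the VIRMA libraries. Both mRNAs were higher in both VIRMA-overexpressing libraries, TSC1 by more than TSC2. The log2 fold change was 0.72 for TSC1 (SE 0.0548, edgeR adjusted p = 3.97e-14) and 0.18 for TSC2 (SE 0.0384, edgeR adjusted p = 0.000102). The ratio of TSC1 to TSC2 RPKM was accordingly 0.326 and 0.325 in the eGFP libraries and 0.472 and 0.478 in the VIRMA libraries. TSC2 shares 402 exonic bases, 3.61% of its length, with NTHL1 on the opposite strand, which had 4338 and 4455 counts in the eGFP libraries and 2925 and 2802 in the VIRMA libraries.

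RHEB (chr7:151466012-151520120, minus strand), the GTPase that TSC2 inactivates, had 96.6 and 95.4 CPM in the eGFP libraries and 88.0 and 88.9 CPM in the VIRMA libraries. The libraries were slightly lower in VIRMA-overexpressing cells without overlap. The log2 fold change was -0.12 (SE 0.0371, 95% CI -0.19 to -0.04, edgeR adjusted p = 0.00514), and it did not pass with upper-quartile scaling (-0.05, adjusted p = 0.265) or library totals alone (-0.03, adjusted p = 0.444). The ratio of RHEB to TSC2 RPKM was 3.30 and 3.34 in the eGFP libraries and 2.61 and 2.81 in the VIRMA libraries.

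The mTORC1 subunit mRNA RPTOR fell and the inhibitor mRNA DEPTOR rose. RPTOR (chr17:80544819-80966371, plus strand), encoding raptor, had 86.3 and 79.9 CPM in the eGFP libraries and 69.1 and 67.4 CPM in the VIRMA libraries. DEPTOR (chr8:119873717-120050913, plus strand), encoding an inhibitor that binds MTOR in both of its complexes, had 12.9 and 12.4 CPM in the eGFP libraries and 18.2 and 16.7 CPM in the VIRMA libraries. RPTOR was lower and DEPTOR higher in VIRMA-overexpressing cells, and in neither did the groups overlap. The log2 fold change of RPTOR was -0.29 (SE 0.0414, edgeR adjusted p = 1.82e-07) and that of DEPTOR 0.46 (SE 0.0805, edgeR adjusted p = 4.26e-06). Partner genes of the complexes, chosen for comparison after their values were seen, were MTOR, the kinase, and RICTOR, the subunit that defines mTORC2. The ratio of DEPTOR to MTOR RPKM was 0.900 and 0.872 in the eGFP libraries and 1.42 and 1.30 in the VIRMA libraries. The ratio of RPTOR to RICTOR was 9.02 and 8.92 in the eGFP libraries and 5.03 and 5.40 in the VIRMA libraries. RICTOR passed the filter only through the VIRMA libraries, and its own rise (log2 fold change 0.50) is part of this fall in the ratio. Against MTOR itself, RPTOR had a ratio of 1.68 and 1.57 in the eGFP libraries and 1.50 and 1.46 in the VIRMA libraries, a much narrower gap.

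EIF4EBP1 (chr8:38030341-38060365, plus strand) encodes 4E-BP1, the translation repressor that holds the cap-binding protein eIF4E until mTORC1 phosphorylates it. It had 90.3 and 92.6 CPM in the eGFP libraries and 149.6 and 159.2 CPM in the VIRMA libraries. Both VIRMA-overexpressing libraries lay well above the controls, and the log2 fold change was 0.76 (SE 0.0366, 95% CI 0.68 to 0.83, edgeR adjusted p = 1.44e-19), a 1.69-fold increase. The paralog EIF4EBP2 had an RPKM of 34.6 and 34.0 in the eGFP libraries and 20.1 and 19.7 in the VIRMA libraries, a fall of the opposite sign (log2 fold change -0.79, edgeR adjusted p = 8.40e-22). The scarce EIF4EBP3 rose (log2 fold change 0.99, edgeR adjusted p = 0.00167), and EIF4E itself fell (log2 fold change -0.44, edgeR adjusted p = 4.38e-10). EIF4EBP3 and EIF4E were picked after their values were seen.

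Over the 3 4E-BP genes, the mRNA pool was larger and held more EIF4EBP1 in VIRMA-overexpressing cells. Its summed RPKM over the 3 genes was 119.9 and 121.8 in the eGFP libraries and 162.4 and 170.3 in the VIRMA libraries. EIF4EBP1 made up 70.2% and 70.9% of the sum in the eGFP libraries and 85.9% and 87.1% in the VIRMA libraries. Relative to EIF4E RPKM, the summed 4E-BP RPKM was 32.7 and 33.5 in the eGFP libraries and 58.6 and 65.5 in the VIRMA libraries. These are mRNA ratios, and protein and phosphorylation of 4E-BP1 were not measured in these libraries.

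**Figure D3:**
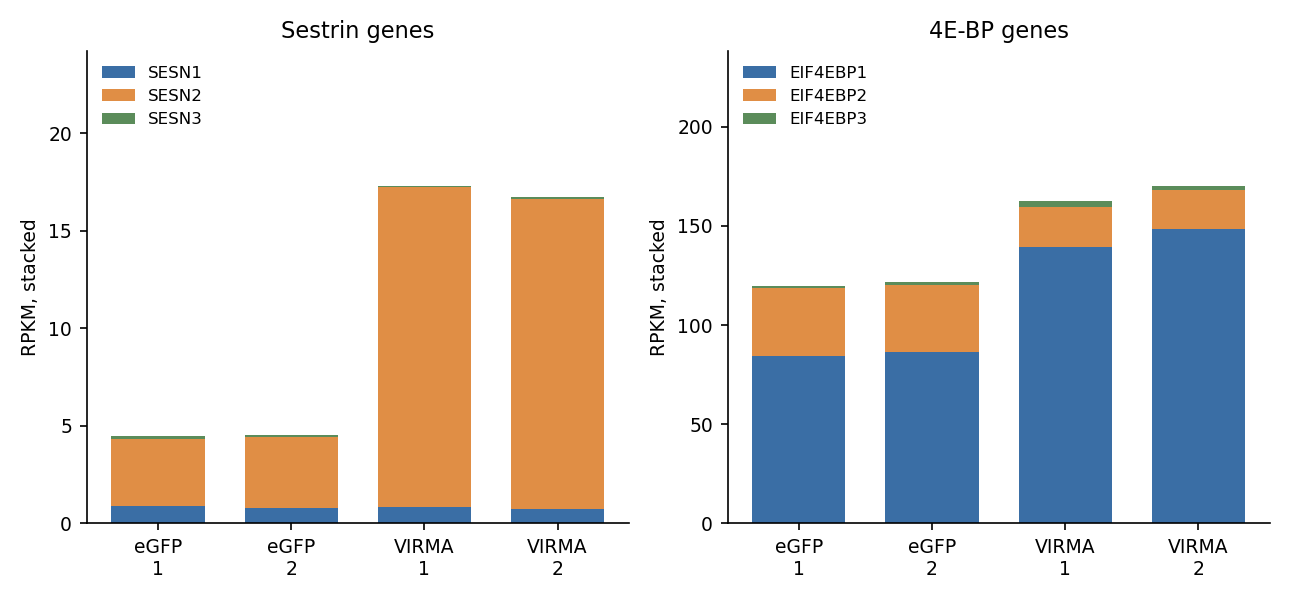
Stacked RPKM of the 3 sestrin genes (left) and the 3 4E-BP genes (right) in each of the 4 libraries, with 1 bar per library starting at 0. The sestrin sum goes from 4.46 and 4.54 in the eGFP controls to 17.3 and 16.7 with VIRMA, nearly all SESN2, and the 4E-BP sum from 119.9 and 121.8 to 162.4 and 170.3 while the EIF4EBP2 portion narrows.

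Ordered by mean RPKM, a level set per exonic length, the control cells ran from EIF4EBP1 (85.2) and DDIT4 (67.3) through RHEB (27.1), RPTOR (8.85), TSC2 (8.18), DEPTOR (4.83), SESN2 (3.53) and TSC1 (2.66) to SESN1 (0.849) and SESN3 (0.122). In VIRMA-overexpressing cells DDIT4 (159.9) stood above EIF4EBP1 (143.9), and SESN2, at 16.4 and 15.9 in its 2 libraries, stood next below RHEB (25.0) and above TSC2 (9.25). The order was the same in both libraries of a group, and neighbours did not overlap. SESN2 passed DEPTOR, TSC2 and RPTOR in this order. The place of DDIT4 depends on how reads in its antisense overlap were counted, which is not known.

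By distance between log2 CPM profiles over the 4 libraries, each centred on the control mean, the tested genes nearest to SESN2 were SLC22A31 (distance 0.0703, log2 fold change 2.20), ASNS (0.0881, 2.24) and GPCPD1 (0.0980, 2.13). ASNS encodes asparagine synthetase, an enzyme induced by amino acid shortage. Those nearest to DDIT4 were CCNO (0.0299, 1.26), CICP14 (0.0341, 1.27) and OGT (0.0360, 1.25). OGT encodes the enzyme that adds O-linked N-acetylglucosamine to proteins. With 4 libraries in 2 groups, such nearness is set mostly by a like fold change.

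The remaining genes of the pathway were listed by role and without the 10 genes. Their counts at an adjusted p below 0.05 are to be read against the 35.1% higher and 35.9% lower of all tested genes. Of 10 tested core genes of the mTOR complexes and their assembly factors, 2 rose, 7 fell and 1 did not pass, with a median log2 fold change of -0.21 and none past both thresholds. RICTOR, which passed the filter only through the VIRMA libraries, rose (0.50, edgeR adjusted p = 8.08e-07), and AKT1S1, encoding the mTORC1 inhibitor PRAS40, fell (-0.56, edgeR adjusted p = 6.85e-17). Without RICTOR, 1 of 9 rose and 7 fell, with a median of -0.21. In the amino acid sensing arm, which holds the GATOR1, GATOR2 and KICSTOR subunits and the sensors, 7 of 15 tested genes rose and 6 fell, with a median of 0.07, shares near the background. Without GATSL2, which passed the filter only through the eGFP libraries, 7 of 14 rose and 5 fell, with a median of 0.10. LARS, the leucyl-tRNA synthetase that also serves as a leucine sensor, rose (0.75, edgeR adjusted p = 3.67e-21), and DEPDC5, a GATOR1 subunit, fell (-0.55, edgeR adjusted p = 1.84e-07). In the Rag and lysosomal arm 3 of 11 tested genes rose and 5 fell, also near the background. Without FNIP1, which passed the filter only through the VIRMA libraries, 2 of 10 rose and 5 fell, with a median of -0.16. FLCN (folliculin), a GTPase-activating protein for the Rag proteins, rose (0.60, edgeR adjusted p = 1.20e-11), and LAMTOR4, a Ragulator subunit, fell (-0.69, edgeR adjusted p = 1.05e-18). The 3 other LAMTOR genes that fell, LAMTOR1 (-0.43), LAMTOR2 (-0.48) and LAMTOR5 (-0.44), were picked out after their values were seen, and LAMTOR3 had -0.06 (edgeR adjusted p = 0.429).

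Upstream, TRIB3, a pseudokinase that binds AKT, was the 1 gene of the PI3K-AKT arm past both thresholds (1.33, edgeR adjusted p = 5.23e-30), and of its 9 tested genes 2 rose and 4 fell, AKT1 among them (-0.28, edgeR adjusted p = 3.70e-10). In the LKB1-AMPK arm 5 of 11 tested genes rose and 2 fell. PRKAB2, a regulatory subunit of AMPK, rose (0.67, edgeR adjusted p = 1.66e-10), and STK11, the gene of LKB1, fell (-0.16, edgeR adjusted p = 0.000583). Of 19 genes for substrates and effectors downstream of mTORC1, 6 rose and 8 fell, again near the background shares. ULK1, the autophagy kinase that mTORC1 restrains, rose (0.70, edgeR adjusted p = 8.14e-18). The median was 0.09 for the PI3K-AKT arm, or 0.04 without VIRMA-overexpressing replicate 1. That of the LKB1-AMPK arm was 0.13, or 0.02 without VIRMA-overexpressing replicate 1 and 0.24 without replicate 2. Those of the Rag and lysosomal arm and of the mTORC1 outputs were both -0.06, each positive with upper-quartile scaling or library totals alone. The Rag and lysosomal median was -0.16 without eGFP control replicate 1, -0.01 without eGFP control replicate 2 and -0.18 without VIRMA-overexpressing replicate 2.

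Target lists of the factors known to act on SESN2 and DDIT4, again without the 10 genes, moved unequally. Over all tested genes, 35.1% were higher and 35.9% lower at an adjusted p below 0.05 (edgeR). Past both thresholds were 4.52% higher and 2.93% lower. Of 20 ATF4 targets, all tested, 19 rose, 14 of them past both thresholds, 0 fell, and the median log2 fold change was 1.55 against 0.01 over all tested genes. The 14 were DDIT3 (3.48), which encodes the stress transcription factor CHOP, SLC7A11 (2.83), the cystine transporter, CHAC1 (2.75), which degrades glutathione, STC2 (2.67), NUPR1 (2.27), ASNS (2.24), ALDH1L2 (2.09), PPP1R15A (1.71), PSAT1 (1.68), PHGDH (1.64), VLDLR (1.46), ATF3 (1.37), TRIB3 (1.33) and SHMT2 (1.00). SHMT2 lay at the fold threshold and fell below it, at 0.97, in the fit with no filter. ATF5 had -0.0042 (edgeR adjusted p = 0.948). SLC7A11, VLDLR, STC2 and ALDH1L2 had an RPKM below 1 in both eGFP libraries and passed the filter only through the VIRMA libraries, where they are high. Without these 4 genes, left out after seeing the data, 15 of 16 rose, 10 of them past both thresholds, with a median of 1.35. SESN2 (2.19) lay above the median of this list and DDIT4 (1.25) and EIF4EBP1 (0.76), also known as ATF4 targets, lay below it.

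The FOXO and HIF target lists were mixed in direction. Counts in both lists are to be read against the 35.1% higher and 35.9% lower of all tested genes. Past both thresholds these shares were 4.52% and 2.93%. Of 13 tested FOXO targets, 7 rose and 4 fell, with a median of 0.35. GADD45A (1.57), a growth arrest gene, RBL2 (1.04), which encodes the pocket protein p130, and BCL6 (1.00), a transcriptional repressor, rose past both thresholds. BCL6 lay at the fold threshold and was below it, at 0.97, in the fit with no filter. TXNIP, the thioredoxin-interacting protein, fell by 4.02 on the log2 scale. Of 15 tested HIF targets, 4 rose and 7 fell, with a median of -0.09, or -0.03 without VIRMA-overexpressing replicate 2. Without PFKFB4, which passed the filter only through the eGFP libraries, 4 of 14 rose and 6 fell, with a median of -0.06. VEGFA, the angiogenic growth factor (1.28, edgeR adjusted p = 1.05e-28), rose past both thresholds, and ADM, encoding adrenomedullin (-1.30, edgeR adjusted p = 6.81e-17), and ALDOC, an aldolase (-1.05, edgeR adjusted p = 4.60e-20), fell past both. The lists share genes: TRIB3 stands in the ATF4 and PI3K-AKT lists, PIK3IP1 and the untested IRS2 in the FOXO and PI3K-AKT lists, and DDIT3, NUPR1 and CEBPB in the ATF4 list and that of transcription factors.

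**Figure D4:**
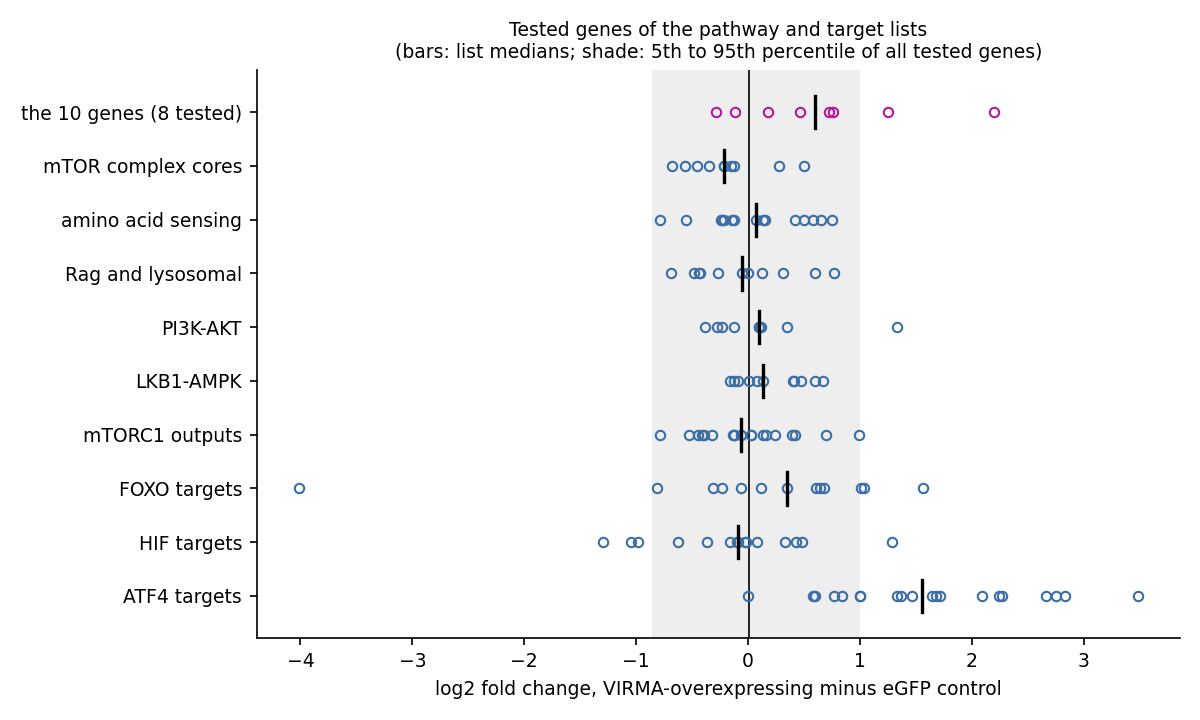
Log2 fold change (x axis) of each tested gene of the 10 genes (magenta) and of 9 pathway and target lists (blue), 1 row per list, with black bars at the list medians, a vertical line at the median of all tested genes and a shade from their 5th percentile (-0.85) to their 95th (0.99). ATF4 targets are centred at 1.55, whereas the medians of the other lists lie between -0.21 and 0.35.

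The mRNAs of the factors themselves were also compared. Of 10 tested transcription factor genes, 6 rose and 1 fell, where 35.1% and 35.9% of all tested genes were called in these directions. Past both thresholds were DDIT3 (3.48) and NUPR1 (2.27), and CEBPB (0.77), ATF4 (0.73, edgeR adjusted p = 1.53e-22), NFE2L2 (0.55) and FOXO3 (0.35) rose by less. EPAS1, the gene of HIF-2 alpha, fell (-0.17, edgeR adjusted p = 3.74e-05). HIF1A (0.10, adjusted p = 0.131), NR3C1, the glucocorticoid receptor (0.14, adjusted p = 0.132), and FOXO1 (0.03, adjusted p = 0.843) did not pass the test in edgeR, and FOXO4 was below the filter. These are mRNA levels, while ATF4 and the HIF alpha subunits are known to be regulated mainly through translation or protein stability. By western blot, the study saw little change of ATF4 protein in SKBR3 cells overexpressing full-length VIRMA under optimal culture. It reported more ATF4 protein than in control cells after arsenite and under hypoxia.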

How the data were processed

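Poly-A-enriched RNA of SKBR3 cells was sequenced in 4 libraries from a stranded kit, 2 per group, described by the study as biological duplicates. The authors trimmed reads with Trimmomatic 0.39, aligned them to hg38 with STAR 2.5.2a and counted them per gene with featureCounts, and the deposited values are raw counts, not normalized, with exonic lengths. The strand setting of the counting and its handling of multi-mapped reads are not given in the sources used here, so genes that share exonic bases are uncertain. The table names the columns of the VIRMA-overexpressing libraries only by a number, and these were taken for that group because the other columns name the control. The VIRMA counts check this.

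RPKM was computed for the filter from library totals, and for the values shown from TMM-scaled library sizes. The comparison used edgeR 4.0.16 (R 4.3.3) and its quasi-likelihood test (TMM, group as the only term, Benjamini-Hochberg adjustment over the 12205 genes whose RPKM passed 1 in 2 or more libraries). The SE was derived from the estimate and its F statistic. SESN1 and SESN3 take their values from the fit with no filter. A single gene cannot reach an exact two-sided permutation p below 0.33 with 2 against 2, so the tests borrow the spread of all genes. In a simulation of 12205 genes, 99% of 200 changed genes were recovered. Of the unchanged genes, 2 were called past both thresholds and 11 had an adjusted p below 0.05. Recovery of changes as small as those of TSC2 and RHEB was not tested, and the 99% does not show how often they are found.

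The 10 genes and the pathway, target and marker lists were chosen with earlier results of these data known. Named from each list are the genes past both thresholds and, in a direction with none, the gene of smallest adjusted p if below 0.05. Some items of the lists are not reported here. Every other listed transcription factor, VIRMA and, for each of the 10 genes past both thresholds, the 3 tested genes of nearest profile are also named. Other genes named were chosen after their values were seen. Alternatives were DESeq2 1.42.0, limma-voom (limma 3.58.1), other scalings and filters, a 2-fold test threshold, the replicate number as a block, and each library left out. Same-numbered libraries deviated together with a correlation of 0.0753.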

Additional observations from a re-analysis of the deposited data

How the results depend on the processing

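Both genes past both thresholds, SESN2 and DDIT4, stayed past them under every alternative run, and no alternative took any of the 10 genes across 0. With upper-quartile scaling and with library totals alone, the number of genes lower at an adjusted p below 0.05 was 1 in place of 2. The gene lost was RHEB, whose log2 fold change became -0.0465 and -0.0324, with adjusted p of 0.265 and 0.444. The median of all shared genes moved by 0.0715 and 0.0857 under these scalings. List medians changed sign under the same pair, to 0.0136 and 0.0279 for the Rag and lysosomal arm and 0.0093 and 0.0234 for the mTORC1 outputs. The rise in the SESN2 share of sestrin RPKM, 16.5 percentage points, ranged from 14.9 to 18.2 with a library left out and was 23.6 on shares of counts not set per length, an alternative chosen after seeing the data. The replicate numbers gave no sign of pairing. With the replicate block SESN2 had a log2 fold change of 2.19 and DDIT4 1.25, and the count past both thresholds remained 2. Low counts limit SESN3 most, at 70 to 123 per library.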
